A study of Mus musculus with 11 samples.

Results

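The GIMAP genes (GTPase of the immunity-associated protein family) were described across T-cells of a murine T-cell leukemia and of wild-type mice. Their members were all genes whose symbol starts with Gimap among the array rows annotated with a single gene symbol, and this rule gave 8 of 19937 genes, namely Gimap1, Gimap3, Gimap4, Gimap5, Gimap6, Gimap7, Gimap8 and Gimap9. Each was measured by 1 row of the array, and the rule uses symbols, not measured values. GIMAP proteins are small GTPases, often anchored to intracellular membranes, that are expressed mainly in lymphocytes. The family is known for its part in the survival of peripheral T-cells: animals without functional Gimap5 become lymphopenic, and several members are known to bind proteins of the BCL2 family or of the autophagy machinery.

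Total RNA of 11 samples was hybridized to 1 Affymetrix array each. The leukemias came from Lckpr-TCL1A+/- mice, which carry human TCL1A, the proto-oncogene of human T-cell prolymphocytic leukemia, under the proximal promoter of Lck and hence in the T-lineage. Both leukemia groups were CD8+ T-cells enriched from spleen. In the chronic phase (3 arrays), 30 to 70% of the cells in blood and spleen were tumor cells and the mice were on average 12 months old. In the exponential phase (5 arrays), blood held over 80% and spleen over 90% tumor cells, the average age was 15 months, and blood lymphocytes doubled in 12 days (SEM 0.8). These shares define the phases and are not stated for the enriched cells. The controls (3 arrays) were CD3+ T-cells from spleens of age-matched C57BL/6 mice, with 3 mice pooled per array. The controls thus include the CD4+ cells that an enrichment of CD8+ cells leaves behind, so that cell selection, genotype and leukemia cannot be told apart in any comparison with wild type. The labels leave unsaid how many mice stand behind a leukemia array, and the p-values measure only the spread between these arrays. The human transgene was not analysed here.

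Values are log2 expression as deposited, normalized by robust multi-array averaging (RMA), and ± gives the SD over arrays. Gene levels are compared between arrays and not between genes, since rows carry different probes. The median over all rows was 2.30. A gene was called changed at a Benjamini-Hochberg adjusted limma p under 0.05 with a change of at least 1.5-fold. In bulk RNA, fewer cells of a type and less RNA per cell cannot be told apart. The markers of the labelled cells were present, with T-cell markers averaging 6.03 to 7.18 over the arrays and CD8 lineage markers 6.50 to 7.98 in all but 1 of them. The exception was exponential replicate 4, in which the 6 CD8 lineage markers averaged 3.43 while T-cell markers averaged 6.97. Its values also correlated less with those of the other exponential arrays (r = 0.946 to 0.949 across genes) than these did among themselves (0.966 to 0.983). Most results that rest on this array are therefore given with and without it.

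No GIMAP gene passed the test in any comparison. In the chronic phase, 0 of 8 were called, against 0.456% of all genes. In the exponential phase it was 0 of 8 against 0.416%, between the exponential and chronic phases 0 of 8 against 0.0%, and in all leukemias together 0 of 8 against 0.722%. At an unadjusted p under 0.05, Gimap6 and Gimap7 in the chronic phase and Gimap3 and Gimap5 in the exponential phase lay lower than in wild type, and Gimap9 lay higher in the exponential phase. In the chronic phase this was 2 of 8 lower, against 4.8% of all genes, and 0 higher, against 6.36%. In the exponential phase it was 2 of 8 lower, against 4.99%, and 1 higher, against 4.79%. The median difference from wild type over the 8 members was -0.25 in the chronic phase and -0.37 in the exponential phase on the log2 scale, where the median over all genes was -0.0017 and 0.0067. Without exponential replicate 4 the exponential median was -0.17, and with each of the other arrays left out in turn it was -0.54 to -0.23, the ends being without wild-type replicates 3 and 1. The chronic median was -0.45 to -0.17 with 1 array left out, the ends again being without wild-type replicates 3 and 1. The sign was negative for 6 members in each of these comparisons, which share their wild-type arrays, and positive for Gimap4 and Gimap9.

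**Figure D1:**
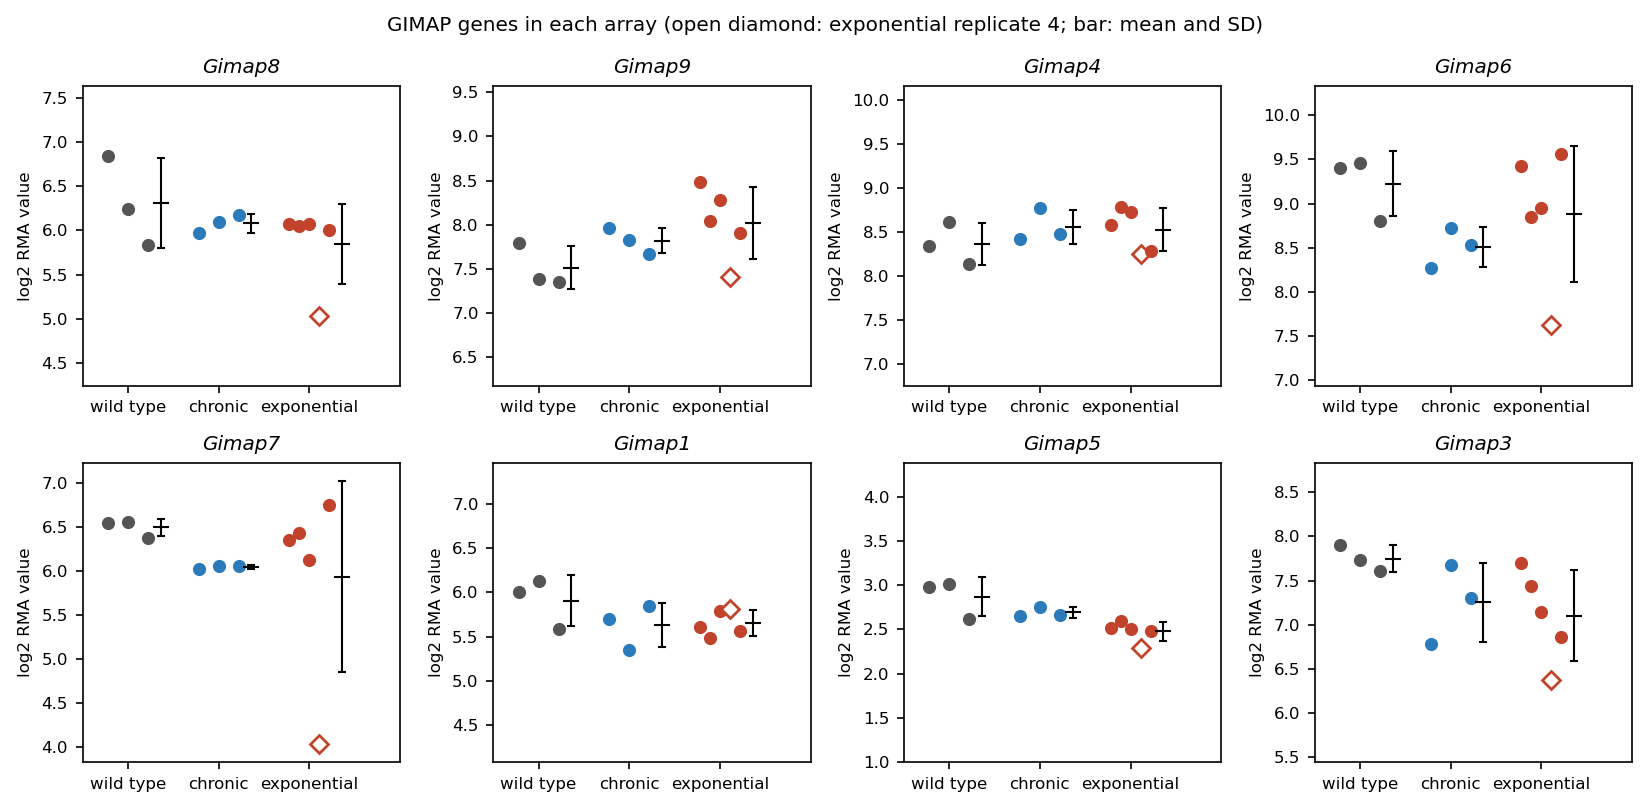
Log2 RMA value of each GIMAP gene (y axis of each panel, spanning the same number of log2 units) in every wild-type, chronic and exponential array (x axis), with the group mean and SD as a bar; genes are in chromosomal order. Exponential replicate 4, the open diamond, is at 4.04 for Gimap7 and 5.03 for Gimap8, while the 3 chronic arrays of Gimap7 sit together between 6.02 and 6.06.

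Gimap5, the member whose loss depletes mature T-cells in rodents, gave a dim signal that was close to the median of all rows. Its level was 2.98, 3.01 and 2.62 in the wild-type arrays, 2.65, 2.76 and 2.67 in the chronic arrays, and 2.52, 2.59, 2.50, 2.30 and 2.48 in the exponential arrays. All exponential arrays were below all chronic and all wild-type arrays, whereas the chronic arrays fell within the wild-type range. Fully separated groups with lower values occurred in 3.5% of all genes for exponential against wild type and in 2.25% for exponential against chronic, or in 5.31% and 3.82% without exponential replicate 4, where Gimap5 stayed separated. Between the leukemia phases, Gimap5 differed by -0.21 (SE 0.10, 95% interval -0.43 to 0.00192, adjusted p = 0.795). Against wild type, the 95% interval of the exponential difference, -0.66 to -0.13, lay within 1 log2 unit of 0 (adjusted p = 0.261). With a signal this dim, the interval describes the values of the row and sets no bound on the change of the transcript. The chronic difference from wild type was -0.11 without wild-type replicate 2 and -0.31 without wild-type replicate 3.

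Gimap3, a close mouse paralog of Gimap5 located at the outer mitochondrial membrane, varied widely among the leukemia arrays. RefSeq lists Gimap5 as an older name of Gimap3, and how far the probes of either row recognize the other transcript is unknown here, so the values of the pair are uncertain as gene-specific levels. Wild-type arrays gave 7.90, 7.73 and 7.60, chronic arrays 6.78, 7.68 and 7.30, and exponential arrays 7.70, 7.44, 7.14, 6.37 and 6.85 for Gimap3. Of the leukemia arrays, chronic replicate 2 and exponential replicate 1 lay within the wild-type range and the other 6 below it. The difference from wild type was -0.49 (SE 0.22, adjusted p = 0.478) in the chronic phase, with -0.26 without chronic replicate 1 and -0.71 without chronic replicate 2. In the exponential phase it was -0.64 (SE 0.26, 95% interval -1.24 to -0.05, adjusted p = 0.460), and -0.46 without replicate 4. Its SD was 0.45 in the chronic and 0.52 in the exponential phase (0.37 without replicate 4), against 0.15 in wild type. Each wild-type array pools 3 mice, so the SDs of wild type and leukemias cannot be compared as spread between mice.

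Gimap1, which mature T- and B-cells need for their maintenance, varied little. The wild-type arrays read 6.01, 6.13 and 5.58, the chronic arrays 5.70, 5.35 and 5.84, and the exponential arrays 5.61, 5.49, 5.79, 5.81 and 5.57. The groups overlapped throughout. Its means were 5.91 ± 0.29 in wild type, 5.63 ± 0.25 in the chronic phase and 5.65 ± 0.14 in the exponential phase. The 95% intervals of the differences from wild type, -0.72 to 0.17 and -0.57 to 0.06, both left out a 2-fold change (1 log2 unit). With 1 array left out, the chronic difference was -0.44 (without wild-type replicate 3) to -0.13 (without chronic replicate 2), and the exponential difference was -0.42 (without wild-type replicate 3) to -0.14 (without wild-type replicate 2). It was the only member of the family that was not lower in exponential replicate 4 than in the mean of the other exponential arrays, with a difference of 0.20.

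Gimap6, which binds the GABARAP family protein GABARAPL2 and takes part in autophagy, had the lowest chronic mean relative to wild type. It read 9.41, 9.46 and 8.80 in wild type, 8.27, 8.72 and 8.53 in the chronic phase, and 9.42, 8.85, 8.95, 7.62 and 9.56 in the exponential phase. The chronic arrays were all below the wild-type arrays, and 4 of 5 exponential arrays were within or above the wild-type range. In the chronic phase the difference was -0.72 (SE 0.21, 95% interval -1.20 to -0.23), a 1.64-fold lower level, with adjusted p = 0.237. At the threshold of the methods' t-test, without adjustment and with a 1.5-fold change, it was the only member to pass in the chronic phase, where 3.12% of all genes did. The exponential phase differed from wild type by -0.35 (SE 0.39, adjusted p = 0.862), by -0.56 without wild-type replicate 3 and by -0.23 without wild-type replicate 2. Without exponential replicate 4 this became -0.03, and the remaining exponential arrays were all above the chronic arrays, with a difference of 0.69 (adjusted p = 0.603). Separation toward higher values between the phases, in these 4 arrays seen also for Gimap7, occurred in 3.4% of all genes.

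Gimap7 stimulates GTP hydrolysis by other members of the family and showed nearly the same layout. Wild-type arrays were at 6.55, 6.56 and 6.38, chronic arrays at 6.02, 6.06 and 6.06, and exponential arrays at 6.35, 6.43, 6.12, 4.04 and 6.75. The chronic arrays lay close together and below every wild-type array. Their difference from wild type was -0.45 (SE 0.11, 95% interval -0.71 to -0.19, adjusted p = 0.179), the smallest adjusted p of any member in any of the 4 comparisons. Complete separation toward lower values in the chronic phase, seen for 2 of the 8 members, was seen in 7.52% of all genes. Exponential replicate 4 widened the exponential SD to 1.09, from 0.26 without it. The difference of the exponential phase from wild type was -0.56 (95% interval -1.73 to 0.62, adjusted p = 0.822) with that array and -0.08 without it. Against the chronic phase it was -0.11 (adjusted p = 0.983) with it and 0.37 (adjusted p = 0.667) without it.

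The promoters of the 2 members that separated in the chronic phase and of Gimap9, which lay on the opposite side, are given so that their sequences can be set side by side (RefSeq, mouse build GRCm38.p6, 5′ to 3′ on the gene's strand, with the transcription start at base 251 of 300). Capitals mark the core letters of binding motifs of lymphoid transcription factors, GGAAGT or ACTTCC for ETS factors and TGTGGT or ACCACA for RUNX factors.
Gimap6, chr6:48708195-48708494, minus strand: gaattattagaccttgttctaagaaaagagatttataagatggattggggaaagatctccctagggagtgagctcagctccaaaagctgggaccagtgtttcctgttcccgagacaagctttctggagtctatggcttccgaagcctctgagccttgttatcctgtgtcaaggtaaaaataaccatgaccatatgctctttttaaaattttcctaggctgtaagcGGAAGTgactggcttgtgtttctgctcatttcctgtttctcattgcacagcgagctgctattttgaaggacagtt
Gimap7, chr6:48718371-48718670, plus strand: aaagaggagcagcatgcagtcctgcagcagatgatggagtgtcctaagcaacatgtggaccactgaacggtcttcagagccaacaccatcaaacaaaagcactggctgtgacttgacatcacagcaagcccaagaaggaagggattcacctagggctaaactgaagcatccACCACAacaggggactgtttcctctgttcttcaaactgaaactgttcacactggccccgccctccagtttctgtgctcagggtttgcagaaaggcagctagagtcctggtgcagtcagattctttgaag
Gimap9, chr6:48675885-48676184, plus strand: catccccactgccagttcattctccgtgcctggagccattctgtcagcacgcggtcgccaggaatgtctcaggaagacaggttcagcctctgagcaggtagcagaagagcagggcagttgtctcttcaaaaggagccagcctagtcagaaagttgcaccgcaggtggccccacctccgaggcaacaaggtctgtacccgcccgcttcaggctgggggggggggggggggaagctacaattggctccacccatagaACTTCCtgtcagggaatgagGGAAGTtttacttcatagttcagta

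None of the motifs searched was in the windows of both Gimap6 and Gimap7. Gimap6 held 1 ETS core at bases 226 to 231 and Gimap9 held 2, at bases 256 to 261 and 276 to 281, whereas Gimap7 held a RUNX core at bases 172 to 177. Across 9 windows of the 8 genes, with both strands searched, the ETS core was in those of Gimap1, Gimap5, Gimap6 and Gimap9 and the RUNX core in those of Gimap1, Gimap4 and Gimap7. The ETS letters occurred in 23.8% and the RUNX letters in 16.8% of 32851 mouse promoters of the same length. Of the other motifs searched, the Ikaros core TGGGAA (25.6% of promoters) and the FOXO core GTAAACA (3.65%) were found only in the window of Gimap3, and the E-box CACGTG (7.15%) in none. The marked cores did not overlap in the printed windows. These matches are descriptions of letters, and no binding was measured.

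Gimap4, which modulates the tempo of T-cell death and is a partner of Gimap7, varied little between the groups. Wild-type arrays gave 8.34, 8.61 and 8.14, chronic arrays 8.42, 8.78 and 8.48, and exponential arrays 8.58, 8.79, 8.73, 8.26 and 8.29. All groups overlapped and no array stood apart. Its differences from wild type were 0.19 (SE 0.16, adjusted p = 0.769) and 0.16 (SE 0.16, adjusted p = 0.830). Both 95% intervals, -0.19 to 0.58 and -0.20 to 0.53, lay within 1 log2 unit of 0. The chronic difference was 0.081 without wild-type replicate 3, 0.086 without chronic replicate 2 and 0.32 without wild-type replicate 2. The exponential difference was 0.051 without wild-type replicate 3, 0.10 without exponential replicate 2 and 0.29 without wild-type replicate 2.

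Gimap8, a large member with more than a single GTPase domain, varied most among the wild-type arrays, which read 6.85, 6.24 and 5.84. Chronic arrays gave 5.97, 6.10 and 6.18. Exponential arrays gave 6.07, 6.05, 6.08, 5.03 and 6.00, so that replicate 4 lay far below the other 4, whose SD was 0.03. All leukemia arrays but this one were inside the wild-type range. The differences from wild type were -0.23 (SE 0.24, adjusted p = 0.830) in the chronic phase and -0.46 (SE 0.29, adjusted p = 0.688) in the exponential phase, which became -0.26 without replicate 4. In the chronic phase the difference was 0.044 without wild-type replicate 1 and -0.46 without wild-type replicate 3, and in the exponential phase these were -0.19 and -0.70.

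Gimap9 was the member with the highest leukemia values relative to wild type. Wild-type arrays were at 7.79, 7.39 and 7.35, chronic arrays at 7.96, 7.83 and 7.67, and exponential arrays at 8.48, 8.05, 8.28, 7.41 and 7.90. Chronic replicate 3 and exponential replicate 4 lay within the wild-type range and the other 6 leukemia arrays above it. The exponential phase exceeded wild type by 0.51 (SE 0.22, 95% interval 0.01 to 1.02, adjusted p = 0.496). Without exponential replicate 4 the difference was 0.67 (adjusted p = 0.108), and the groups no longer overlapped, as was the case for higher values in 5.23% of all genes. In the chronic phase the difference was 0.31 (SE 0.16, adjusted p = 0.553).

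**Figure D2:**
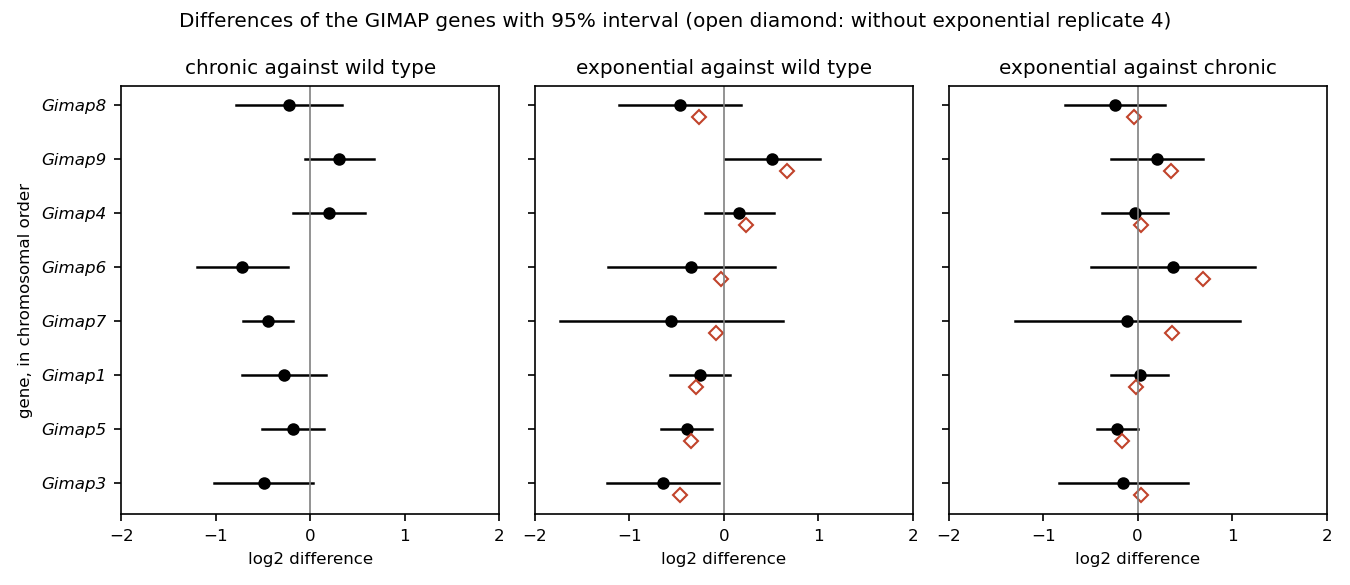
Log2 differences of each GIMAP gene (y axis, chromosomal order) with their 95% limma intervals, from wild type, in the chronic and the exponential phase, and between the phases (x axis, log2 difference; open diamonds leave out exponential replicate 4). Gimap6 and Gimap7 lie at -0.72 and -0.45 in the chronic phase, and without replicate 4 their exponential differences move to -0.03 and -0.08 while that of Gimap9 moves to 0.67.

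The precision differed between members and comparisons. Intervals within 1 log2 unit of 0 were obtained for 6 of 8 members in the chronic phase, 3 in the exponential phase, 6 between the phases and 5 for all leukemias. The dim Gimap5 is counted in each, and the counts that involve the exponential phase include its replicate 4. The chronic and exponential phases differed by -0.24 to 0.37 over the 8 members (adjusted p = 0.795 to 0.986). The ends belonged to Gimap8 and Gimap6. Without exponential replicate 4, Gimap6 differed by 0.69. The exponential mean of Gimap8 was then 6.05 instead of 5.84, against 6.08 in the chronic phase. With all leukemias together, Gimap3 differed by -0.59 (adjusted p = 0.418), Gimap5 by -0.31 (adjusted p = 0.311) and Gimap9 by 0.44 (adjusted p = 0.449), and the groups of every member overlapped, also without exponential replicate 4. Without that array the leukemia means were 7.27 instead of 7.16 for Gimap3, 2.60 instead of 2.56 for Gimap5 and 8.02 instead of 7.95 for Gimap9. The wild-type means were 7.75, 2.87 and 7.51.

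Exponential replicate 4 held the lowest value of all 11 arrays for Gimap3, Gimap5, Gimap6, Gimap7 and Gimap8, and in each case this was also below the wild-type range. Relative to the mean of the other exponential arrays, Gimap7 was at -2.38, Gimap6 at -1.58, Gimap8 at -1.02, Gimap3 at -0.91 and Gimap9 at -0.77, with Gimap4 at -0.34, Gimap5 at -0.23 and a median of all genes of -0.01. Gimap7 ranked 63rd and Gimap6 139th from the lowest of 19937 genes in this difference. The mean of the 8 members, each centred over the 11 arrays, was -0.77 in this array. It was 0.05 to 0.21 in the other exponential arrays, -0.16 to 0.03 in the chronic arrays and 0.35, 0.26 and -0.09 in the wild-type arrays.

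Some cell type markers also stood apart in this array. CD8 lineage markers averaged 3.43, against 7.36 to 7.98 in the other exponential arrays. NK-cell markers averaged 2.98 against 3.83 to 4.28, myeloid markers 4.22 against 3.05 to 3.70, and erythroid markers 3.44 against 2.34 to 2.48. These 3 averages rested on part of each list. Only Klrd1 (3.39) and Klrk1 (2.23) were below the other exponential arrays. Of the myeloid markers, S100a8 (7.89), S100a9 (8.83), Lyz2 (6.36) and Mpo (2.84) were above them, but Cd14, Csf1r, Itgam, Adgre1 and Cd68 were not. Of the erythroid markers, Car1 (5.29), Car2 (5.03) and Slc4a1 (3.69) were above them, but Alas2, Klf1 and Epor were not. Cd8a itself was at 2.96 and Cd4 at 5.18, so the array went against its label of CD8+ T-cells. CD4 and regulatory T-cell markers averaged 3.75 against 2.56 to 3.35, still under the 5.15 to 5.28 of wild type, but the members went different ways. Cd4 lay above its wild-type values of 4.44, 4.21 and 4.62. Ikzf2 at 6.88 and Cd40lg at 3.54 were above the other exponential arrays, and Zbtb7b at 2.47 was close to the highest of them. Ctla4 at 3.85, Foxp3 at 2.24 and Il2ra at 2.07 were below all other exponential arrays. The part of these cell markers in the low GIMAP values was not tested.

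**Figure D3:**
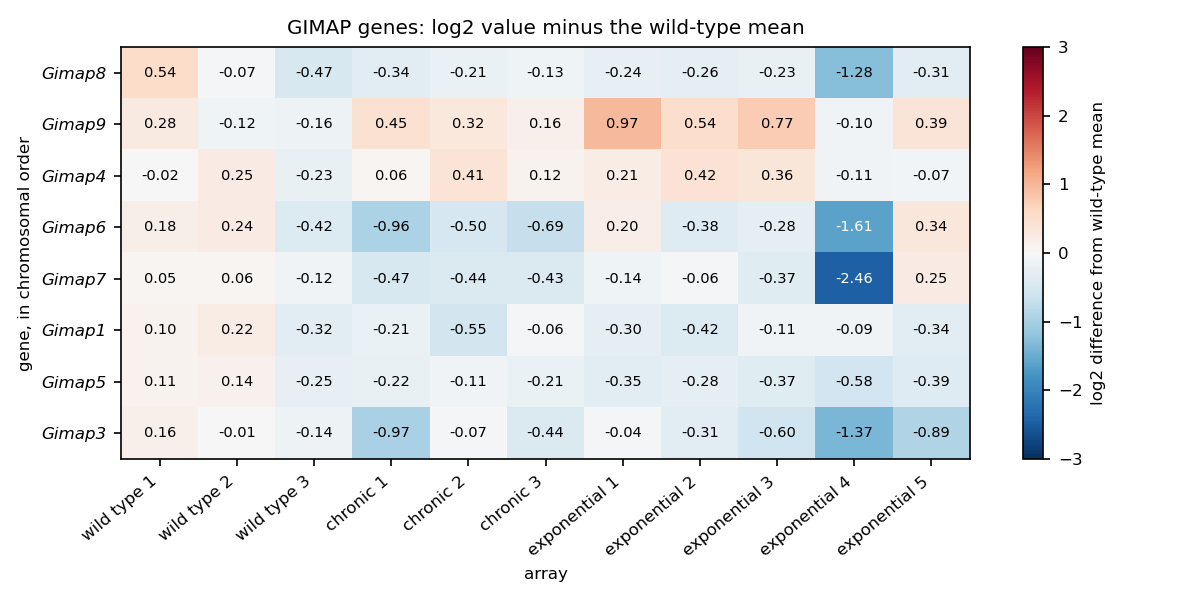
Log2 value of each GIMAP gene minus its wild-type mean (colour scale) in the 11 arrays, in chromosomal order. Exponential replicate 4 has the lowest value of the row for Gimap3, Gimap5, Gimap6, Gimap7 and Gimap8, down to -2.46 for Gimap7, and Gimap9 is above the wild-type mean in 7 of the 8 leukemia arrays.

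Between the groups, all 7 CD4 and regulatory T-cell markers had negative differences in every comparison with wild type. Of these, 5 were called lower in the chronic phase, against 0.316% of all genes, and 1 in the exponential phase, against 0.281%. Their mean level was 2.52 to 3.33 in chronic, 2.56 to 3.75 in exponential and 5.15 to 5.28 in wild-type arrays. The 5 calls of the chronic phase became 0, 0 and 1 without wild-type replicate 1, 2 and 3, and 3 without chronic replicate 2. The 1 call of the exponential phase became 6 without exponential replicate 4. The 8 T-cell markers averaged 6.03 to 6.79 in chronic, 6.43 to 6.97 in exponential and 6.79 to 7.18 in wild-type arrays, with 0 called. All chronic averages were below those of wild type (highest 6.787 against lowest 6.795). Their median difference from wild type was -0.66 in the chronic and -0.37 in the exponential phase, where the GIMAP medians were -0.25 and -0.37. Without exponential replicate 4 the GIMAP median of the exponential phase was -0.17. In that array T-cell markers averaged 6.97, the highest of the exponential arrays, and GIMAP genes 5.85, the lowest. In the chronic phase 8 T-cell markers were negative, 5 of them at an unadjusted limma p under 0.05 (4.8% of all genes). In the exponential phase 6 were negative and 2 positive, with 4 lower at that p (4.99%). The 6 CD8 lineage markers averaged 7.22 to 7.81 in chronic, 3.43 (replicate 4) to 7.98 in exponential and 6.50 to 7.54 in wild-type arrays, with 0 called. Their median difference from wild type was 0.66 in the chronic and 0.18 in the exponential phase. In the chronic phase 6 were positive, 4 of them at that p (6.36% of all genes). In the exponential phase 4 were positive and 2 negative, with 1 higher at that p (4.79%). Myeloid markers averaged 2.35 to 2.62 in chronic, 3.05 to 4.22 in exponential and 2.35 to 2.60 in wild-type arrays. In the exponential phase 1 of 9 was called higher (0.135% of all genes). The exponential and wild-type averages did not overlap. Of the members, Lyz2, S100a8, S100a9 and Adgre1 also separated, as 3.28% of all genes did toward higher values. Cd14, Csf1r, Itgam, Cd68 and Mpo overlapped. Plasma cell markers averaged 3.52 to 4.77 in chronic, 3.36 to 3.95 in exponential and 4.45 to 5.68 in wild-type arrays, so that the exponential and wild-type arrays did not overlap. Of their members, Prdm1, Xbp1, Jchain and Tnfrsf17 also separated, and Sdc1 overlapped. Erythroid markers averaged 2.22 to 4.48 in chronic, 2.34 to 3.44 in exponential and 3.96 to 4.53 in wild-type arrays, again with no overlap between exponential and wild type. Among their members only Car1 separated. Such separation toward lower values in the exponential phase occurred in 3.5% of all genes. B-cell markers (2.50 to 4.76), NK-cell markers (2.98 to 4.61) and endothelial markers (2.02 to 2.26) overlapped between exponential and wild-type arrays, while the chronic arrays lay below wild type for the endothelial markers (2.03 to 2.10 against 2.21 to 2.25). These endothelial averages were under the median of all rows. Only Pecam1 among them separated, at 2.68 to 3.28 in chronic against 3.83 to 4.17 in wild-type arrays, as 7.52% of all genes did toward lower values. Of the B-cell, plasma cell and endothelial markers, 0 were called in any comparison. In the chronic phase 1 NK-cell marker was called higher (0.14% of all genes), and in the exponential phase 1 erythroid marker lower (0.281%). What these shifts contributed to the GIMAP differences was not tested.

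After subtraction of the group means, members tended to deviate together over all 11 arrays, and less so without exponential replicate 4. Pairs of other genes were not computed for comparison. Over the 28 pairs of members the median Pearson r was 0.62 (range -0.34 to 0.90, n = 11 arrays), with the highest value for Gimap6 and Gimap7. Without exponential replicate 4 the median was 0.26 (range -0.43 to 0.71), and 6 pairs instead of 18 exceeded 0.5. All points of these member pairs share the arrays, their normalization and their cell makeup.

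Genes whose values over the 11 arrays were most like the family mean were sought among the 9546 brighter genes. Closest were Rnf125, a ubiquitin ligase (r = 0.96, rho = 0.77), Gbp4, an interferon-inducible GTPase (r = 0.93), Tgoln1, a trans-Golgi protein (r = 0.93), Abcb1a, a drug efflux pump (r = 0.92), and P2ry10, a lymphoid receptor (r = 0.91). Most opposed was Cdkn2c, an inhibitor of cyclin-dependent kinases (r = -0.94, rho = -0.85). Rnf125 was low in the same array as the family, at 4.18 in exponential replicate 4 against 6.12 to 7.35 elsewhere, and Cdkn2c was at 5.97 there against 2.13 to 3.42. With exponential replicate 4 and wild-type replicate 1 left out, the r of Rnf125 was 0.73, that of Gbp4 0.66 and that of Cdkn2c -0.67. The likeness is a description over arrays that share a normalization.

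Genes around which GIMAP proteins act were mostly not called either. Of 9 measured BCL2-family genes, 0 were called in any comparison, with median differences from wild type of 0.13 in the chronic and 0.30 in the exponential phase (0.35 without exponential replicate 4). Bcl2, the inhibitor of apoptosis, differed by 1.17 in the chronic phase (adjusted p = 0.114), and Bak1, an executor of it, by 0.59 in the exponential phase (adjusted p = 0.156). Of 12 signalling and autophagy genes linked to the family, such as Gabarapl2 and Ulk1, 0 were called (medians -0.21 and -0.13, the latter -0.12 without that array). Of 14 genes of T-cell survival and quiescence, 0 were called as well (medians -0.11 and 0.02, the latter 0.01 without that array). Differences from wild type were negative for 11 and positive for 3 of them in the chronic phase, and for 7 and 7 in the exponential phase. Klf2, a factor of quiescent T-cells, differed by -1.03 (adjusted p = 0.135) in the chronic phase. Btg2 differed by -1.73 (adjusted p = 0.135) in the chronic phase, and Satb1 by 0.80 (adjusted p = 0.228) in the exponential phase. Between the phases, Klf2 and Ccr7 were higher in the exponential phase by 0.74 and 1.90 (both adjusted p = 0.748).

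Of 12 lymphoid transcription factor and Notch genes, only Runx1, a regulator of T-cell development, was called, lower in the chronic phase (0.316% of all genes). Its difference was -1.28 (SE 0.19, adjusted p = 0.0452). The call was lost with any 1 of the 6 arrays left out, with differences of -1.45 to -1.11 (adjusted p = 0.0585 to 0.152). Among 10 interferon-inducible GTPases, another GTPase group of immune cells, only Iigp1 was called, lower in all leukemias together (0.441% of all genes). Its difference was -1.19 (SE 0.24, adjusted p = 0.0384). It was called in 3 of the 11 fits that left out an array, and its difference was -0.83 (adjusted p = 0.111) without wild-type replicate 2. The medians of that group were 0.16 in the chronic and -0.17 in the exponential phase, and the latter turned to 0.037 without exponential replicate 4.

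In the annotation of build GRCm38.p6 the 8 genes lie side by side on chromosome 6, in the order Gimap8, Gimap9, Gimap4, Gimap6, Gimap7, Gimap1, Gimap5 and Gimap3, with 0 other protein-coding genes between them. Gimap6 and Gimap7, the members that separated from wild type in the chronic phase, are neighbours, and Gimap9 and Gimap4, with positive differences, are neighbours too. Of the 3 nearest genes measured on either side, 0 were called. Tmem176b, the first gene beyond Gimap3 and a membrane protein of myeloid and T-cells, differed from wild type by -0.73 (SE 0.20, adjusted p = 0.200) in the exponential phase and by -0.0026 in the chronic phase. The genes before Gimap8, AI854703, Zfp775 and Repin1, gave dim signals with mean values of 2.11, 2.35 and 2.21.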

How the data were processed

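Total RNA of enriched splenic T-cells from 5 exponential, 3 chronic and 3 wild-type samples was hybridized to Affymetrix arrays. The authors normalized the arrays by RMA, and the deposited values are log2 expression. Versions of their tools are not given for the mouse arrays in the sources used here. Of 34760 rows, 21640 carried a single gene symbol in the platform annotation, 1321 several and 11799 none; the row of highest mean was kept for each of 19937 genes. The number of arrays limits precision. Groups and replicate numbers came from the labels.

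Each comparison was fitted on its own 2 groups by lmFit and eBayes of limma (version 3.58.1, under R version 4.3.3), and p-values were adjusted over all genes by the Benjamini-Hochberg method. In simulated data made with the spread of these arrays, of 100 genes changed 2-fold 55 were called in the chronic and 81 in the exponential comparison. Members and gene lists were chosen with earlier results of these data known. Set for description were all 8 members in every comparison and up to 3 genes of a list with the smallest p. The 8 genes most like and the 3 most opposed to the family mean, and the 3 nearest measured genes on either side, were set as well. Only part of these values is printed above. Likeness was sought among genes at or above the median level. Alternatives were another sample set, the replicate block, a filter on dim genes, cyclic loess, another variance model, array weights, the methods' t-test, other row choices, no fold threshold and leaving out each array. Counts of non-overlapping groups, correlations and likeness without exponential replicate 4, list medians with 1 array left out, and the listed genes under the alternatives, were added after seeing the data. Deviations of same-numbered arrays of different groups correlated at r = -0.04 to 0.18 over 9 pairs and exceeded 0.1 in some pairs only, so the numbers were not taken to pair the arrays. Promoters were read from RefSeq (GRCm38.p6). Gene symbols were matched to RefSeq by Entrez identifier for 21553 rows.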

Additional observations from a re-analysis of the deposited data

Results flagged for a closer look

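Exponential replicate 4 stood apart from the other 4 exponential arrays by Dixon's test in 3 of the 9 measures checked in that group, namely Gimap7 at 4.04 (gap over range 0.769), Gimap8 at 5.03 (0.928) and the centred mean of the 8 members at -0.77 (0.832). By chance about 1 in 20 groups is expected to do so, and the members of the family are not independent measures of this array.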

How the results depend on the processing

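In all 4 comparisons, 0 of the 8 members were called under each of the 16 to 21 alternatives run, and the lowest adjusted p was 0.101 in the chronic phase, 0.0614 in the exponential phase, 0.603 between the phases and 0.203 for all leukemias. The 0.0614 was that of Gimap9 with the replicate block, where its difference was 0.76. The replicate numbers are not known to pair the arrays, and 8 of 18 array and group pairs correlated best within their number. With the block, genes called over the whole table moved from 83 to 139 in the exponential phase and from 144 to 264 in all leukemias, and between the phases the sign turned for Gimap1 (-0.0036), Gimap3 (0.18), Gimap4 (0.14) and Gimap7 (0.26). Array weights turned Gimap7 there to 0.030. Leaving out 1 array gave -0.46 to 0.044 for Gimap8 in the chronic phase, and between the phases -0.12 to 0.13 for Gimap1, -0.39 to 0.061 for Gimap3, -0.10 to 0.078 for Gimap4 and -0.31 to 0.37 for Gimap7. Over the whole table, the 91 chronic calls became 154 with a trended robust variance, 0 with the methods' t-test (2225 genes had an unadjusted limma p under 0.05), 0 over all rows and 8 to 108 with 1 array left out, lowest without wild-type replicate 1. The 83 exponential calls became 4 with the t-test, 45 over all rows and 16 to 221 with 1 array left out, lowest without wild-type replicate 2 and highest without exponential replicate 4. The 144 calls of all leukemias became 46 with the t-test and 50 to 273 with 1 array left out, lowest without wild-type replicate 1 and highest without exponential replicate 4. Between the phases, calls ranged from 0 to 2, the 2 being without chronic replicate 1, with 1246 genes at an unadjusted p under 0.05. The cause of these changes was not tested.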
